A study of Mus musculus with 6 samples.

Results

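The genes of the non-collagen interstitial matrix and the matricellular genes had higher mean signals after cardiac pre-differentiation of mouse embryonic stem cell aggregates, but the 3 pre-differentiated cultures differed widely and 0 of these genes passed the test with all arrays. The genes were listed by function: 37 were listed, and 33 of them had a row with a single gene symbol in the array annotation, out of 30176 genes with such a row. Each had 1 row. Ecm1 shares its row with a microRNA gene, and Fbn1, Efemp2 and Spp1 are not analysed here. Ctgf is named Ccn2 in the annotation and Cyr61 is named Ccn1.

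Total RNA was measured on Clariom D arrays, from aggregates of the R1 line that were grown in microcapsules and released from them. The deposited values are log2 signals, in which a difference of 1 is a doubling. In the before group (n = 3 arrays), aggregates were grown for 7 days in embryonic stem cell medium with leukaemia inhibitory factor. In the after group (n = 3 arrays), such aggregates were kept for 3 more days in medium with BMP-4 and bFGF, whose recipe lists no leukaemia inhibitory factor. The labels call the arrays biological replicates and do not say how the cultures were separated. Growth factors, medium and days of culture differed together between the groups and cannot be told apart. All aggregates were made from 1 cell line, and RNA of whole aggregates cannot tell a larger share of cells of one type from more transcript per cell.

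The interstitial matrix is the network that mesenchymal cells secrete between cells. Fibronectin fibrils anchor cells through integrins and act as a scaffold on which fibrillin microfibrils and collagen are laid down. Small leucine-rich proteoglycans coat collagen fibrils, and versican with hyaluronan forms a loose, hydrated matrix that fills the jelly of the early heart tube. Matricellular proteins such as periostin, tenascin-C, thrombospondins and the CCN proteins are secreted into this network and act on cell behaviour more than on its structure.

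The arrays themselves were uneven. Array medians lay between 4.17 and 4.47 and the median difference over all rows was -0.18. On the leading principal component of the 5000 most variable rows, with 76.6% of their variance, the before arrays lay between -109.3 and -63.9, after replicate 1 at -2.48, and after replicates 2 and 3 at 131.4 and 130.9. On 6 of 8 pluripotency genes all after arrays were below all before arrays, and the median distance from the before mean was -1.37 on after replicate 1 and -8.79 and -8.22 on after replicates 2 and 3. Dppa5a, one of the other 2, was at 18.25 on after replicate 1 and between 17.58 and 19.10 before. Since after replicate 1 lay between the groups, results are given with all arrays and without it. That array was singled out by its values, and leaving it out tends to widen differences and narrow the spread. Adjusted p-values and counts of genes that passed without it are therefore descriptions of the remaining arrays and not valid tests.

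Of the 33 genes, 31 had a higher mean after pre-differentiation and 2 a lower one, where 31.7% of all genes had a higher mean. Their median difference was 1.88 on the log2 scale, beside -0.16 over all genes, and 16 of the 33 were above 2, as 3.14% of all genes were. On 20 of them the lowest after array was higher than the highest before array, beside 11.8% of all genes, and on 1, Ltbp2, the after arrays were all lower, beside 28.2% of all genes. In limma's test 0 of the 33 were higher and 0 were lower at an adjusted p under 0.05, where 1.24% of all genes were higher and 0.65% were lower. Before adjustment, 19 were higher and 0 lower with p under 0.05 (10.9% and 19.7% of all genes). The smallest adjusted values were those of Postn and Ctgf (limma adjusted p = 0.0876 for each). Without after replicate 1, 17 of the 33 were higher and 0 lower by limma, beside 7.8% and 7.48% of all genes, and the median difference was 2.50. Without after replicate 2 the median was 1.07 and 0 of the 33 passed. In that fit the difference was over 1.5 times smaller on 15 genes (Fn1, Vtn, Spon1, Fbn2, Mfap2, Mfap4, Mfap5, Fbln2, Fbln5, Ltbp3, Dcn, Fmod, Ogn, Thbs2 and Matn2) and turned its sign on 3 (Eln, Emilin1 and Emilin2).

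**Figure D1:**
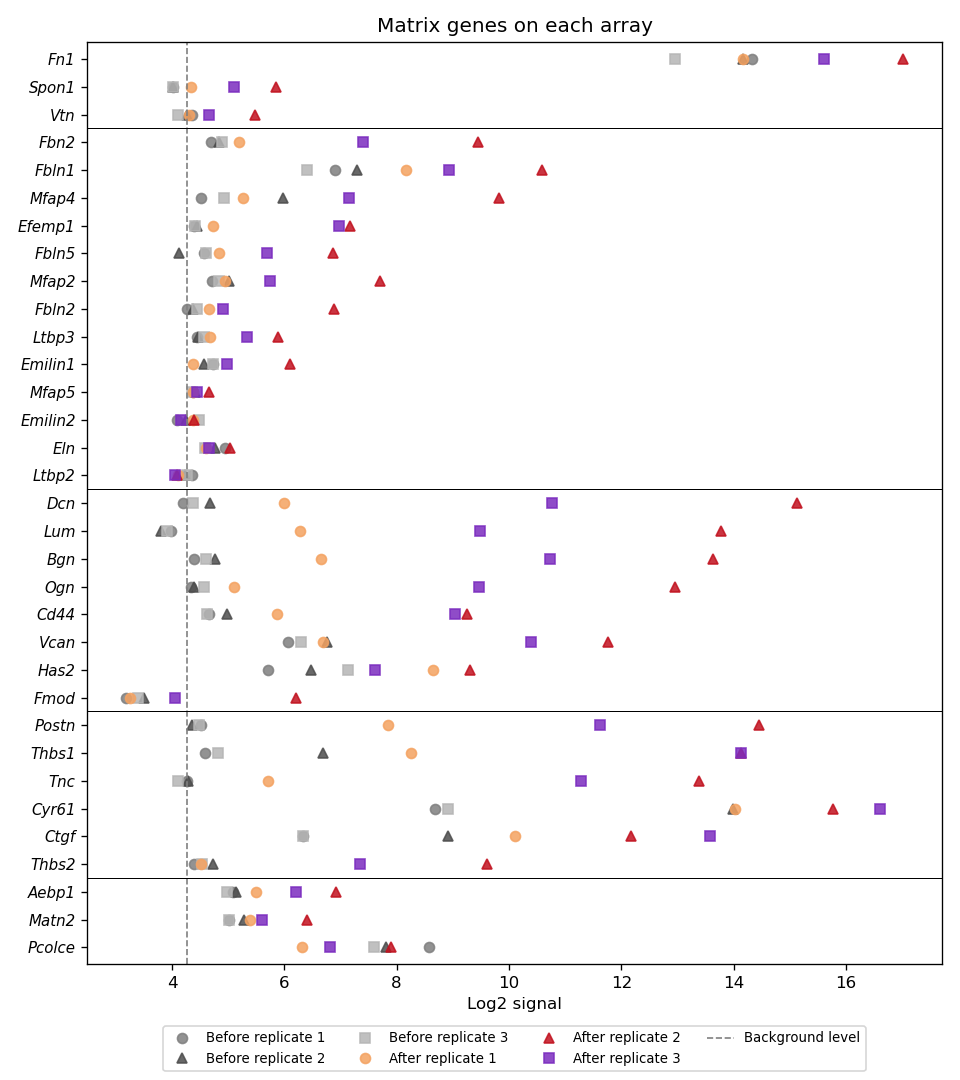
Log2 signal (x axis) of the 33 matrix genes (rows, ordered by role group and then by difference) on each of the 6 arrays; grey symbols are before arrays, coloured ones after arrays, and the dashed line is the background level of 4.27. Before arrays cluster near the background level for many genes, and on 27 genes after replicate 2 is the highest of the 6 arrays.

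The background level of 4.27 is the 95th percentile of the mean signals of 1716 olfactory and vomeronasal receptor genes, since the values carry no detection call. On 27 of the 33 genes both group means lay above it, on 5 (Vtn, Spon1, Lum, Fmod and Tnc) only the after mean did, and on Ltbp2 only the before mean.

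The 6 matricellular genes had the highest median of the role groups, 5.42, with all 6 above 2, and 5 of the 6 passed without after replicate 1. Postn encodes periostin, a collagen-binding protein of heart valve and bone mesenchyme. Its log2 signal was 4.51, 4.35 and 4.48 on before replicates 1, 2 and 3 and 7.85, 14.45 and 11.61 on after replicates 1, 2 and 3. The groups were far apart, and the after arrays spread over more units than separated the lowest of them from the before arrays. The difference was 6.86 (SE 1.58, 95% interval 2.98 to 10.73), and without after replicate 1 it was 8.58 (SE 0.83, limma adjusted p = 0.00773).

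Tnc encodes tenascin-C, a large hexameric glycoprotein that loosens cell adhesion. It was at 4.26, 4.28 and 4.11 before and at 5.71, 13.38 and 11.29 after, in the same order of replicates. As for Postn, after replicate 1 was low and the other after arrays high. The difference was 5.91 (SE 1.89, limma adjusted p = 0.143), and 8.11 without after replicate 1 (SE 0.61, limma adjusted p = 0.0047). Thbs1 encodes thrombospondin-1, which can activate latent TGF-beta. Its signals were 4.58, 6.68 and 4.81 before and 8.25, 14.12 and 14.12 after. Here after replicates 2 and 3 were alike, and before replicate 2 stood above the other before arrays. The difference was 6.81 (SE 1.71, limma adjusted p = 0.101), and 8.76 without after replicate 1 (SE 0.67, limma adjusted p = 0.00482). Its relative Thbs2 overlapped between groups. It lay at 4.39, 4.73 and 4.54 before and at 4.52, 9.62 and 7.35 after, so that after replicate 1 was inside the before range.

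Ctgf and Cyr61 encode CCN proteins that bind integrins and heparan sulphate, and in many cell types their genes are targets of YAP with TEAD factors. Ctgf was at 6.33, 8.91 and 6.33 before and at 10.11, 12.17 and 13.59 after. Cyr61 was at 8.68, 14.00 and 8.91 before and at 14.02, 15.77 and 16.60 after. On both genes before replicate 2 stood out, and for Cyr61 it was lower than after replicate 1 in the second decimal place only. Unlike on most of the 33 genes, after replicate 3 was above after replicate 2. The difference was 4.76 for Ctgf (SE 1.10) and 4.94 for Cyr61 (SE 1.56, limma adjusted p = 0.142). Without after replicate 1 Ctgf passed (5.69, limma adjusted p = 0.0302) and Cyr61 did not (5.66, limma adjusted p = 0.121).

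Other genes of the early response to serum and stretch were set beside these, chosen after the values of Cyr61 were seen. Egr1, an immediate early transcription factor, was at 12.97 on before replicate 2 and at 6.58 and 6.66 on before replicates 1 and 3. Fos was at 10.56 there and at 4.72 and 4.78 on the others. Before replicate 2 was the highest before array on 8 of 9 such genes, as it was on 27.8% of all genes. Of the 9 genes, 1 was higher after pre-differentiation by limma with all arrays: Ankrd1, another YAP target (6.16, SE 0.93, adjusted p = 0.0495). Egr1 was not (-0.34, limma adjusted p = 0.921), with the high before replicate 2 in its before mean. What set before replicate 2 apart was not tested.

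Promoter sequences from RefSeq (GRCm38.p6) are shown for the 5 genes with the largest differences among those with a listed window, because these genes shared high signals on after replicates 2 and 3. Each window runs from 250 bases before to 50 bases after the listed start, and where several starts are listed the most downstream one was taken. Capitals mark TATAAA, one spelling of the TATA box, and GGAATG, the core of the site that TEAD factors bind, on either strand. Other spellings of the TATA box were not searched.
Postn, chr3:54360857-54361156, plus strand: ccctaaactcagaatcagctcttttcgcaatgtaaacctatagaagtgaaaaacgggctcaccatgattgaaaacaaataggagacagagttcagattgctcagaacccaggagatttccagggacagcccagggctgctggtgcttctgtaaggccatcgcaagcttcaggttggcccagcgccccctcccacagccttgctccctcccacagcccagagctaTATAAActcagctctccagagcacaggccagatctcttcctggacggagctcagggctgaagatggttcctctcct
Tnc, chr4:64046887-64047186, minus strand: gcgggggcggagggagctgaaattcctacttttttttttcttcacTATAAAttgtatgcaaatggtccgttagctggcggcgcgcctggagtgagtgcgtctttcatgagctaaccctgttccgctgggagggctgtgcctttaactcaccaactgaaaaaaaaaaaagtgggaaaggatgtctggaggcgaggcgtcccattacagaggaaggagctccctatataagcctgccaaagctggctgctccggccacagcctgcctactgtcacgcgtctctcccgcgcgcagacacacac
Cyr61, chr3:145649936-145650235, minus strand: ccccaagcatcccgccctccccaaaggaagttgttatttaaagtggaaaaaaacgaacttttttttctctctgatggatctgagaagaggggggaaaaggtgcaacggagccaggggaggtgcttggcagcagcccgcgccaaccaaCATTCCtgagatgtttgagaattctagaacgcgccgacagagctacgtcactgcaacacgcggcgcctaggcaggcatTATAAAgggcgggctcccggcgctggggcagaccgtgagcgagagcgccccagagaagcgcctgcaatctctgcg
Bgn, chrX:73483351-73483650, plus strand: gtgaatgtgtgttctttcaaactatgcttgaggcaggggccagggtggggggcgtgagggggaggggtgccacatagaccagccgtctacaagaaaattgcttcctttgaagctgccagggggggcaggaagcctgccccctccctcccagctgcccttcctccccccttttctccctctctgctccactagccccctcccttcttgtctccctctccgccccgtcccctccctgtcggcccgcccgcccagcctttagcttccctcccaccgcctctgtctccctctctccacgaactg
Ogn, chr13:49607765-49608064, plus strand: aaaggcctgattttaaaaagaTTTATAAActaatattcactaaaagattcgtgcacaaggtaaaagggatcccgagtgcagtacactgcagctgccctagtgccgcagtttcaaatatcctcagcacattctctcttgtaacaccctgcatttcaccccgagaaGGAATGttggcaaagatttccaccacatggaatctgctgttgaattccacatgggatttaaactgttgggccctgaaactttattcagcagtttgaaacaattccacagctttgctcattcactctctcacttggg

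In the Postn window the TATA box begins 26 bases before the start, and in the Cyr61 window 25 bases before it. The Tnc match lies 205 bases before the start and those of Ogn, which overlap each other on opposite strands, 229 and 227 bases before it. The Tnc window also holds the unmarked letters tatataag nearer to the start, a spelling outside the search. Its match at 205 bases therefore does not show that a TATA box close to the start is absent. The GGAATG core is in the windows of Cyr61, 103 bases before the start, and Ogn, 86 bases before it, and the Bgn window holds neither motif but 3 copies of GGGCGG, the GC box. Over all the genes described, 27 windows of 21 genes are listed. TATAAA is in 7 of them (25.9%, beside 13.6% of 32851 windows of all genes), GGAATG in 5 (18.5%, beside 14.7%) and GGGCGG in 15 (55.6%, beside 35.7%), searched on both strands. The 7 windows with TATAAA belong to 6 genes and the 15 with GGGCGG to 14. The 2 Tnc windows overlap, so the same Tnc sites are counted more than once. GGGCGG overlaps neither of the other motifs in spelling. A match describes the letters only and does not show that a factor was bound.

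Of the 8 genes of proteoglycans and hyaluronan, all had higher means, 7 had a difference above 2, and the median was 4.02. Dcn encodes decorin, a small proteoglycan that binds collagen fibrils. It was at 4.20, 4.68 and 4.37 before and at 6.0, 15.12 and 10.76 after. The after arrays spanned more than 9 units, which was more than the mean difference of 6.21 (SE 2.18, limma adjusted p = 0.161). Without after replicate 1 the difference was 8.53 (SE 1.27, limma adjusted p = 0.022), and without after replicate 2 it was 3.96 (limma adjusted p = 0.321).

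Lum, whose product lumican regulates the width of collagen fibrils, was at 3.97, 3.81 and 3.91 before and at 6.27, 13.77 and 9.49 after. Bgn, encoding biglycan, was at 4.39, 4.77 and 4.61 before and at 6.65, 13.63 and 10.74 after. Ogn, encoding osteoglycin, was at 4.34, 4.39 and 4.58 before and at 5.10, 12.96 and 9.47 after. These 3 genes shared the pattern of Dcn, in which after replicate 2 was highest, after replicate 3 between and after replicate 1 closest to the before arrays, and no groups overlapped. Their differences were 5.95, 5.75 and 4.74 with all arrays, and without after replicate 1 they were 7.73, 7.59 and 6.78 and passed (limma adjusted p = 0.0267, 0.0109 and 0.0222). Without after replicate 2 they were 3.98, 4.10 and 2.85 and did not pass. Fmod, encoding fibromodulin, was the small proteoglycan gene with the smallest difference (1.15, 95% interval -0.67 to 2.96). It lay at 3.18, 3.50 and 3.40 before and at 3.25, 6.21 and 4.05 after, so that only after replicate 2 was clearly above the background level.

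Vcan, encoding the hyaluronan-binding proteoglycan versican, was at 6.06, 6.76 and 6.30 before and at 6.69, 11.76 and 10.39 after. After replicate 1 was inside the before range, and the other after arrays were more than 3 units above it. The difference was 3.24 (SE 1.26, limma adjusted p = 0.189), or 4.70 without after replicate 1 (SE 0.46, limma adjusted p = 0.00805). Cd44, the gene of the main cell surface receptor for hyaluronan, was at 4.65, 4.98 and 4.62 before and at 5.87, 9.25 and 9.05 after, and without after replicate 1 its difference of 4.40 passed (limma adjusted p = 0.00156). Has2, the gene of the enzyme that makes hyaluronan in the early heart, behaved otherwise. Its signals were 5.70, 6.48 and 7.13 before and 8.64, 9.30 and 7.61 after, with after replicate 1 above after replicate 3. The difference was 2.08 (SE 0.54, limma adjusted p = 0.107), and 2.01 without after replicate 1 (limma adjusted p = 0.131). Thus the synthase was at about the same distance from the before arrays with and without after replicate 1, while the versican and receptor genes were not.

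**Figure D2:**
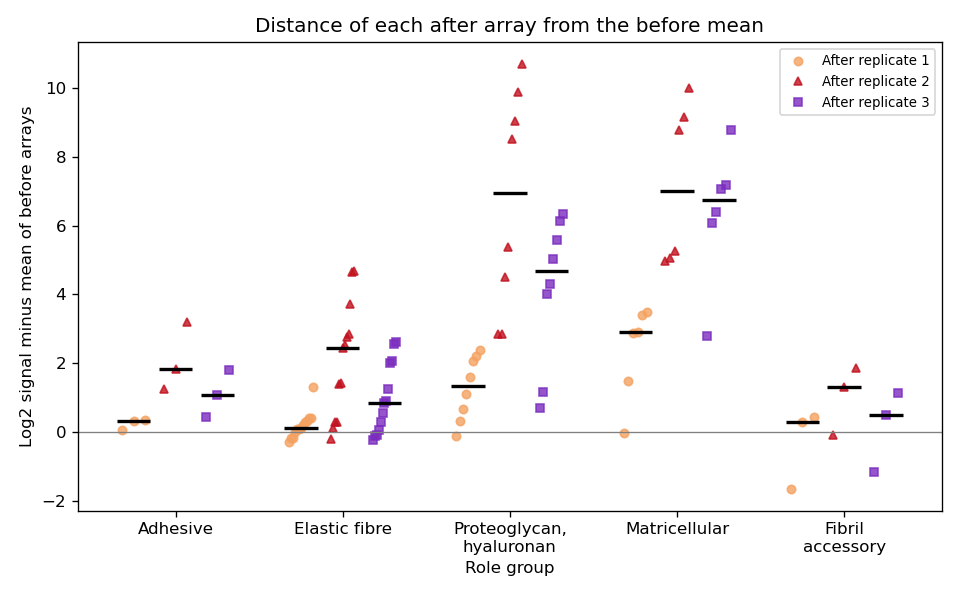
Log2 signal of each after array minus the mean of the before arrays (y axis) for the genes of each role group (x axis); points are genes, coloured by after array, and black bars are medians. The medians of the matricellular genes are 2.90, 7.00 and 6.73 on after replicates 1, 2 and 3, and those of the proteoglycan and hyaluronan genes 1.35, 6.96 and 4.67.

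Differences of the 13 genes of microfibrils and elastic fibres were smaller, with a median of 1.12, and 12 of the 13 had higher means. Fbn2, the fibrillin gene used most in embryonic tissue, was at 4.70, 4.83 and 4.89 before and at 5.20, 9.44 and 7.41 after. All after arrays were above the before arrays, after replicate 1 by little. The difference was 2.55 (SE 1.01, limma adjusted p = 0.194), 3.62 without after replicate 1 (SE 0.60, limma adjusted p = 0.0292) and 1.5 without after replicate 2 (limma adjusted p = 0.369). Fbln1, encoding fibulin-1 of elastic fibres and basement membranes, was at 6.90, 7.29 and 6.39 before and at 8.16, 10.59 and 8.94 after, a difference of 2.36 (SE 0.64, limma adjusted p = 0.112). Its after replicate 1 was well above the before arrays, at 44.7% of the distance of the mean of the other after arrays on the log2 scale. Efemp1, encoding fibulin-3, was at 4.39, 4.44 and 4.42 before and at 4.74, 7.17 and 6.98 after. The near equality of after replicates 2 and 3 gave it a small error without after replicate 1 (2.66, SE 0.13, limma adjusted p = 0.00211).

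The genes of other microfibril proteins followed with lower or less even signals. Mfap4, a fibrinogen-like protein that binds elastin, overlapped between groups because before replicate 2 (5.97) was above after replicate 1 (5.26), while after replicates 2 and 3 were at 9.82 and 7.15. Mfap2, which encodes a glycoprotein of fibrillin microfibrils, was at 4.94, 7.71 and 5.75 after and between 4.71 and 5.02 before. Fbln5, needed for elastic fibre assembly in mice, had a difference of 1.36 (95% interval 0.11 to 2.62), Fbln2 one of 1.12 (-0.33 to 2.58) and Ltbp3, which carries latent TGF-beta, one of 0.81 (0.06 to 1.56). On these last 3 the groups did not overlap. The differences of Fbln2 and Mfap2 rested mostly on after replicate 2, and without it they were 0.42 and 0.49. Ltbp3 passed without after replicate 1 (1.12, limma adjusted p = 0.035), whereas Fbln5 did not (1.84, limma adjusted p = 0.0543).

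Elastin itself did not follow. Eln was at 4.94, 4.76 and 4.58 before and at 4.60, 5.04 and 4.67 after, so the groups lay on top of each other. The difference was 0.01 with a 95% interval from -0.42 to 0.43, which is narrow beside the differences of Fbn2 and Fbln1. Emilin2 (0.03, -0.34 to 0.40) and Mfap5 (0.11, -0.19 to 0.41) also had narrow intervals around 0, and Ltbp2, which binds fibrillin but not latent TGF-beta, had a lower mean by a small amount (-0.20, -0.45 to 0.06). That amount was near the median of -0.18 over all rows, and with median centring of each array it was -0.02. Emilin1 was at 4.73, 4.56 and 4.73 before and at 4.37, 6.10 and 4.97 after, so that after replicate 1 was below and the other after arrays above the before arrays. Its difference was 0.47 (-0.59 to 1.53), and -0.0037 without after replicate 2. For Eln, Emilin2, Mfap5 and Ltbp2 all 6 signals were near the background level, so a difference in a transcript below that level could not be seen.

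Fn1 encodes fibronectin. Its signals were 14.32, 14.16 and 12.96 before and 14.17, 17.02 and 15.60 after. Fibronectin transcript was thus far above background before pre-differentiation, after replicate 1 was inside the before range, and the other after arrays were above it. The difference was 1.78 (SE 0.77, 95% interval -0.11 to 3.68), and 2.50 without after replicate 1 (SE 0.60, limma adjusted p = 0.0723). Spon1, encoding F-spondin, was at 4.01, 4.02 and 4.02 before and at 4.34, 5.85 and 5.10 after, and without after replicate 1 its difference of 1.46 passed (limma adjusted p = 0.0305). Vtn, the gene of vitronectin, was at 4.31, 5.48 and 4.66 after and between 4.10 and 4.36 before.

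Pcolce was the gene with the largest decrease in mean. It encodes an enhancer of the protease that trims fibrillar procollagen. It was at 8.58, 7.81 and 7.59 before and at 6.32, 7.90 and 6.82 after, with after replicate 2 inside the before range. The difference was -0.98 (SE 0.47, 95% interval -2.12 to 0.17). After replicate 2, the array on which most of the 33 genes were highest, was thus the one on which Pcolce was nearest to its level before pre-differentiation. Aebp1, whose product binds collagen and helps fibrils assemble, was at 5.09, 5.14 and 4.98 before and at 5.50, 6.92 and 6.20 after, and passed without after replicate 1 (1.49, limma adjusted p = 0.0281). Matn2, a matrilin that links filaments of the matrix, had a difference of 0.70 (SE 0.28) with no overlap between groups, and did not pass in either fit (limma adjusted p = 0.118 without after replicate 1).

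**Figure D3:**
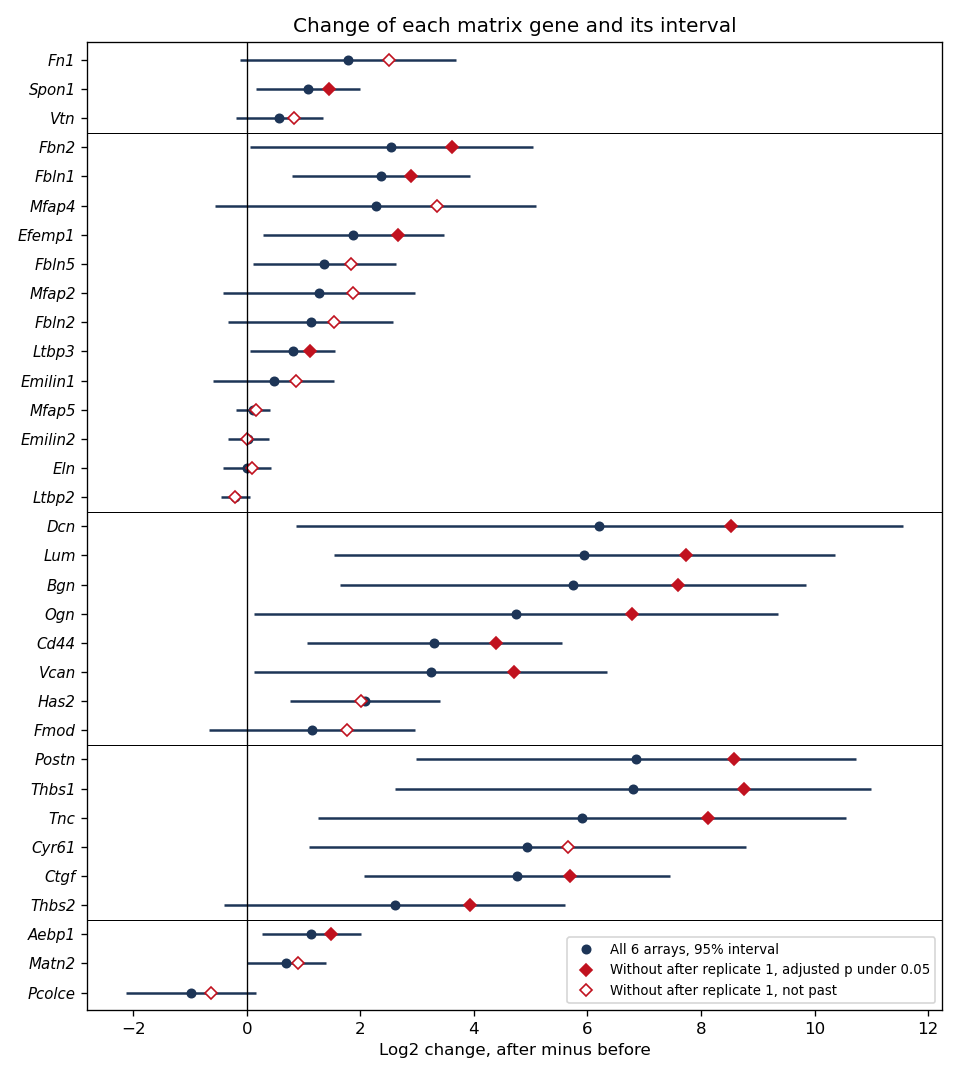
Log2 change, after minus before (x axis), of the 33 matrix genes (rows, by role group); circles with bars are the fit with all 6 arrays and its 95% interval, and diamonds the fit without after replicate 1, filled where the limma adjusted p was under 0.05. The diamonds lie to the right of the circles for the genes with large differences, and 17 are filled, while Has2 keeps its place (2.08 and 2.01).

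The after arrays kept the same order on most of these genes. After replicate 2 was above after replicate 3 and that above after replicate 1 on 27 of the 33 (81.8%), an order found on 16.0% of all genes. The genes outside that order were Thbs1, Ctgf, Cyr61, Has2, Emilin2 and Ltbp2. Medians of the distance from the before mean were 0.32, 2.86 and 1.79 on after replicates 1, 2 and 3, beside -0.12, -0.17 and -0.19 over all genes. For the 25 genes on which the mean of after replicates 2 and 3 was at least 1 unit from the before mean, after replicate 1 had gone a median of 19.7% of that log2 distance. Over all genes that median was 41.0%, on 7230 genes. Among the 25, Has2 (109.4%), Cyr61 (61.7%) and Ctgf (51.3%) had gone furthest, while Thbs2 (-0.95%) and Fmod (-6.0%) were slightly below their before means. The points share the same 6 arrays, so these shares are no independent measurements, and nothing in the labels sets the after cultures apart.

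Marker genes of other cell types differed in whether they followed this order. Smooth muscle markers did on 4 of 5 genes, visceral endoderm markers on 5 of 8 and cardiomyocyte markers on 5 of 8. The fibrillar collagen genes did on 7 of 9, with Col1a1 at 6.86, 15.90 and 11.71 on after replicates 1, 2 and 3 and between 5.08 and 5.23 before. By limma with all arrays 0 of those 9 passed, and before adjustment 4 were higher with p under 0.05. Of 8 listed markers of fibroblasts and mesenchyme 7 were measured, and 6 had the same order. Their summed log2 level was 7.43 to 7.52 before and 8.69, 16.66 and 12.48 after, on the after arrays mostly from the collagen genes that the list holds. Pdgfrb was at 6.26, 9.97 and 8.51 after and between 4.80 and 5.10 before.

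The 10 parietal endoderm markers showed another order, in which after replicate 3 was the highest array for each, and 7 of the 10 were higher by limma with all arrays. Their summed level was 15.64 to 15.97 before and 18.90, 19.17 and 19.93 after, so that after replicate 1 was near the others. Visceral endoderm markers were at 10.05 to 10.35 before and 16.86, 18.22 and 16.26 after, with 1 of 8, Afp, higher. Smooth muscle markers were at 8.13 to 10.12 before and 12.47, 16.96 and 16.03 after, and 0 of 5 passed (3 higher at an unadjusted p under 0.05). A sum follows the brightest genes: the differences of these 5 had a median of 0.88, from 0.48 to 6.89, and 2 were above 2. Cardiomyocyte markers were at 7.97 to 8.19 before and at 8.01, 9.92 and 8.36 after, and 0 of 8 passed (1 higher at an unadjusted p under 0.05). Endothelium markers were at 9.27 to 10.12 before and 10.50, 12.25 and 13.88 after, highest on after replicate 3. Of these 5 genes 3 had higher means and 2 lower, with differences from -2.88 to 6.56. By limma with all arrays 1 was higher, and before adjustment 3 were higher and 1 lower with p under 0.05. The order of most matrix genes was followed by 1. The summed level of the 33 matrix genes was 13.23 to 15.15 before and 15.23, 18.31 and 17.56 after, most of it from Fn1 and Cyr61. The part of any of these cell types in the signals of the matrix genes was not tested.

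**Figure D4:**
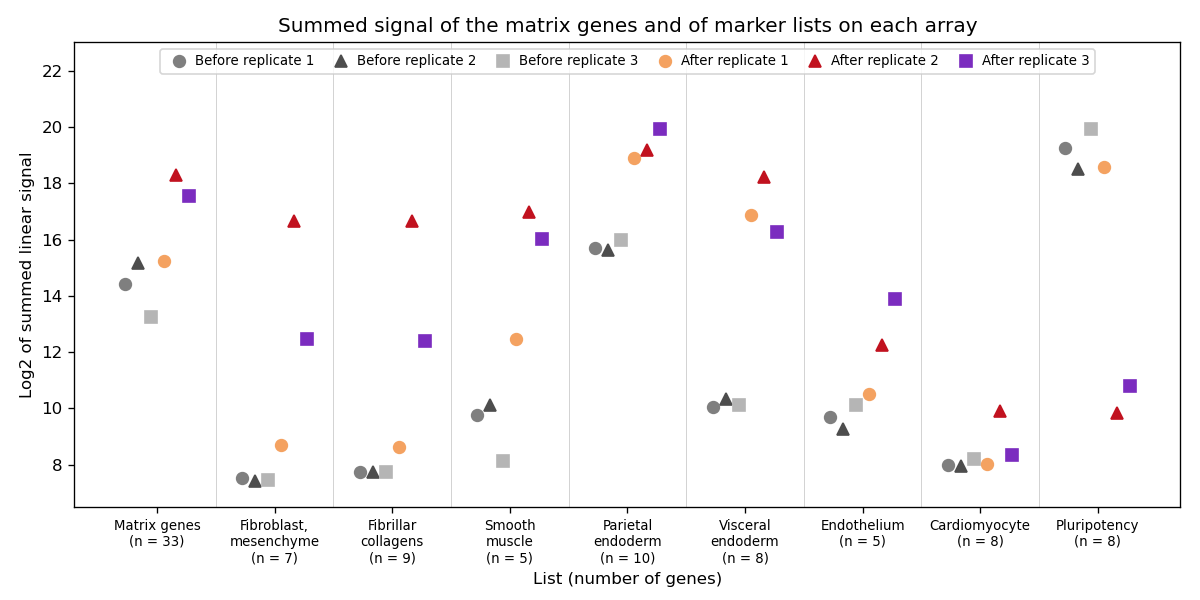
Log2 of the summed linear signal (y axis) of the 33 matrix genes and of 8 marker or collagen lists (x axis, with the number of genes) on each array; symbols are single arrays. The sums of the matrix genes, collagens and fibroblast, smooth muscle, visceral endoderm and cardiomyocyte markers are highest on after replicate 2. Those of the parietal endoderm (19.93) and endothelium markers are highest on after replicate 3. The sum of the pluripotency markers is at 9.85 and 10.81 on after replicates 2 and 3. It is at 18.58 on after replicate 1, where 6 of the 8 are below all before arrays.

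Genes of receptors that bind these matrix proteins were measured on 18 rows. Their median difference was 1.39, 16 had higher means, and 1, Sdc4, was higher by limma with all arrays. Sdc4 encodes syndecan-4, a heparan sulphate co-receptor for fibronectin. It was at 8.94, 8.54 and 8.52 before and at 11.40, 10.63 and 11.66 after, a difference of 2.56 (SE 0.30, limma adjusted p = 0.0371). Itgav, the alpha-v integrin chain that joins several beta chains to bind fibronectin and vitronectin, was at 8.42, 8.72 and 8.23 before and at 10.45, 12.10 and 12.21 after (3.13, SE 0.49, limma adjusted p = 0.0518). After replicate 1 was among the other after arrays for Sdc4 and between the groups for Itgav, whereas for Fn1 it was inside the before range. Without after replicate 1, 10 of the 18 were higher and 1 lower.

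Of 54 further glycoprotein and proteoglycan genes of the matrix 53 were measured, and their median difference was 0.28. By limma 1 was higher and 0 were lower with all arrays, and before adjustment 14 were higher and 2 lower with p under 0.05. The gene that passed was Spock1, which encodes testican-1, at 6.20, 5.92 and 6.41 before and 9.65, 9.51 and 10.88 after (3.84, SE 0.39, adjusted p = 0.0322). Every after array was thus more than 3 units above every before array, with after replicate 1 among them. Pcolce2, a relative of Pcolce, was at 8.68, 7.47 and 9.45 before and 6.81, 5.28 and 5.20 after (-2.77, SE 0.65, limma adjusted p = 0.0903). Without after replicate 1 the counts were 18 higher and 2 lower. On 15 of the 53 both group means were at or below the background level, so for these no difference could be seen.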

How the data were processed

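Per the labels, the array files were summarized in Transcriptome Analysis Console; the authors deposited the resulting log2 signals for 72688 rows, used here without further normalization. The software version, summarization and genome build were not given in the sources used here. After leaving out 31 rows whose identifier starts with AFFX, 72657 rows (65956 transcript clusters, 6701 control rows) were fitted with lmFit and eBayes of limma 3.58.1 under R 4.3.3. Tests were two-sided, p-values were adjusted over all these rows by the Benjamini-Hochberg method, and the threshold was 0.05. An exact permutation test of 3 arrays against 3 cannot go below p = 0.1. Rows with 1 symbol (30638) named genes, each by its brightest row. The genes described, the other lists and the tests were chosen with earlier results of these data known. Every gene of the list is named. From each list of collagens, receptors, further matrix genes and cell type markers, up to 4 genes past the threshold with the largest differences could be named, or else those with the largest differences. Itgav, Pcolce2 and the early response genes fall outside this rule and were chosen after their values were seen. The fit was checked on simulated data with the spreads of the real rows and 50 changed genes of each size. At an adjusted p under 0.05 by limma it recovered 7 at a log2 change of 1 and 28 at 2. It recovered 40 at 4 and 48 at 8, with 2 false calls, so smaller changes were often missed. Intervals cover the spread between these arrays, whose number limits the precision.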

Additional observations from a re-analysis of the deposited data

How the results depend on the processing

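With all arrays 0 of the 33 genes passed limma's test, and this held with quantile normalization, median centring of each array, only rows above the background level, only the brighter rows (mean signal above the median row, which left 30 of the 33), control rows left out, trend and robust variances, the mean of the rows of a gene and the methods' test after adjustment (before adjustment it gave 7 higher and 1 lower). Leaving out each array gave 0 to 17 higher, the 17 without after replicate 1, and the median difference then ranged from 1.07 to 2.50. That median was 2.09 with quantile normalization and 2.06 with median centring. Over all genes, 373 higher and 196 lower became 486 and 135 with median centring, 645 and 419 with only rows above the background level, 674 and 448 with only the brighter rows, 540 and 378 with control rows left out, 138 and 30 with trend and robust variances, and 0 and 0 by the methods' test after adjustment (2320 and 5546 before it). Leaving out each array gave 0 to 2353 higher and 0 to 2257 lower: 2353 and 2257 without after replicate 1, 101 and 67 without before replicate 2, and 0 and 0 without any of the other 4. Sdc4, Spock1, Ankrd1 and Afp, which passed with all arrays, thus passed in none of those 4 fits. Without before replicate 2 Spock1 did not pass either (limma adjusted p = 0.0548). Filters left fewer rows to test; for the other settings the cause was not tested.

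The direction turned for 3 genes when each array was left out, for Emilin1 only without after replicate 2: Eln ranged from -0.13 to 0.10, Emilin1 from -0.0037 to 0.86 and Emilin2 from -0.061 to 0.13. Median centring put Eln at 0.19, Emilin2 at 0.21 and Ltbp2 at -0.02. In a fit that took the numbers as pairs (replicate block), 0 of the 33 genes and 0 of all genes passed. The arrays share only a number: deviations of same-numbered arrays had correlations of -0.03, 0.14 and -0.08, and some arrays were closer to another number than to their own.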
